A study of Mus musculus with 5 samples.

Results

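The 10 genes described here are Apoe, Gpx3, Pld4, Scimp, Cd2, Slamf6, Plac8, Pon3, Napsa and Fgl2. They were chosen by symbol because their level was higher in splenic plasma cells that carried B220, or in the clusters those cells formed, and all 10 were found among the 33456 genes counted in each library. The counts that chose them are the counts described here. The B220 differences are therefore given as a description with no test, and they support nothing by themselves.

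Plasma cells were taken from untreated, unimmunized male C57Bl6/N mice aged 8 to 12 weeks, with 3 mice pooled for each sample. They were double sorted as CD138-high cells without Ly6g or CD11c. They were then divided by B220, the CD45R form that B cells carry and that many plasma cells lose, and by 2NBDG, a glucose analog whose fluorescence shows how much a cell has taken up. The 5 libraries were B220+2NBDG+ spleen, B220+2NBDG- spleen, B220-2NBDG+ bone marrow, B220-2NBDG+ spleen and B220-2NBDG- spleen, with 1 library in each group. No group had a replicate, so no difference between sorted groups was tested. The intervals given for them are 95% intervals for counting error only, since a pool of mice gives 1 value.

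Plasma cells arise when activated B cells stop dividing and turn their cytoplasm over to making and secreting antibody. B220 and MHC class II are lost along this path, so B220+ plasma cells are usually taken as the more recent ones, and bone marrow is a site where plasma cells can persist. The 10 genes come from several kinds of protein. Apoe is a secreted lipid carrier. Pon3 is a lactonase of the paraoxonase family, and Gpx3 is a secreted glutathione peroxidase. Cd2 and Slamf6 are immunoglobulin-fold adhesion and signalling receptors, and Scimp is a transmembrane adaptor that binds Lyn beside MHC class II molecules. Pld4 is an exonuclease of endosomes and lysosomes that trims single-stranded nucleic acid, and Napsa is an aspartic protease. Fgl2 is a fibrinogen-like protein found both secreted and at the membrane, and Plac8 is a small cysteine-rich protein.

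The libraries held 5476 cell barcodes, of which 5468 were used after 8 cells of a T cell-like cluster were left out. Total counts of unique molecular identifiers (UMIs) were 9451886 to 15591435 for each library. Immunoglobulin genes took 47.0% to 64.8% of them, so levels are given as CPM, the UMIs of a gene scaled to 1000000 of the 3950427 to 6666166 UMIs that were not immunoglobulin. The median cell held 3698 to 5910 such UMIs. The plasma cell genes Sdc1 and Xbp1 were present in every library. T cell markers summed to 7.84 to 21.3 CPM and neutrophil markers to 0.253 to 3.54 CPM. The macrophage and monocyte list summed to 1210 to 3413 CPM, led by Ly6c2 and Ctss. Of its 16 genes, 4 to 6 were at 0 in each library. Adgre1, Fcgr1 and Cd14 were at 0 in every library, and each of the others had UMIs in at least 1. Any pair of libraries shared at most 4 cell barcodes.

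RefSeq promoter windows, 250 bases before to 50 bases after a gene start on GRCm38.p6, were found for 7 of the 10 genes in 10 windows. Scimp, Cd2 and Napsa were not matched. The 5 windows printed here belong to the genes whose values carry most of the description that follows: Apoe and Gpx3, whose B220 ratios stood apart between IgG and IgM cells in opposite directions, Pld4 and Pon3, whose levels were most alike, and Fgl2, whose window held a searched motif. All are written 5′ to 3′ on the gene's strand, and capitals mark a match to a searched motif. The Apoe window is chr7:19699139-19699438 on the minus strand, and the Gpx3 window is chr11:54902604-54902903 on the plus strand. The Pld4 window is chr12:112760405-112760704 on the plus strand, the Pon3 window is chr6:5256184-5256483 on the minus strand, and the Fgl2 window is chr5:21372423-21372722 on the plus strand.
Apoe: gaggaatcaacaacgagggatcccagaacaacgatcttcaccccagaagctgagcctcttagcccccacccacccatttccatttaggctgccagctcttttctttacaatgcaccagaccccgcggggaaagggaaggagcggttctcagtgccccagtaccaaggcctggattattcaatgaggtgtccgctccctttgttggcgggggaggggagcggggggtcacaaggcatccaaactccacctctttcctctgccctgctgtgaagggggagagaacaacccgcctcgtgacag
Gpx3: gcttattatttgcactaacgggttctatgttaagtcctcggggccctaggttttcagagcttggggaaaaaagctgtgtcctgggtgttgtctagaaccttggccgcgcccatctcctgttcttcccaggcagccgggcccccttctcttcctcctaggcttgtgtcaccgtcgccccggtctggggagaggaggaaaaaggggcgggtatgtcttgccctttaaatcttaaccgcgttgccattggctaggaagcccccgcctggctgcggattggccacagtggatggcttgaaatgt
Pld4: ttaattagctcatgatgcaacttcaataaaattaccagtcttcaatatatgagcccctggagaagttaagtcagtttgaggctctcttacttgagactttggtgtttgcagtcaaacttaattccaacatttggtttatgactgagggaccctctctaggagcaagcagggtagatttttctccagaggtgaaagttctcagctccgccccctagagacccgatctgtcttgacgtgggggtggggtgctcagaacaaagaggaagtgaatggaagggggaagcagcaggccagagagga
Pon3: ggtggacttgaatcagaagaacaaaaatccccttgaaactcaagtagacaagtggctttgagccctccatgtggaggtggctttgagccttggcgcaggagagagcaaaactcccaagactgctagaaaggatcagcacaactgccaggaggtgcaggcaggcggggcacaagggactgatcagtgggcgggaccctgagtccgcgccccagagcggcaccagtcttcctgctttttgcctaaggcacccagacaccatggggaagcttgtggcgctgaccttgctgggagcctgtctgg
Fgl2: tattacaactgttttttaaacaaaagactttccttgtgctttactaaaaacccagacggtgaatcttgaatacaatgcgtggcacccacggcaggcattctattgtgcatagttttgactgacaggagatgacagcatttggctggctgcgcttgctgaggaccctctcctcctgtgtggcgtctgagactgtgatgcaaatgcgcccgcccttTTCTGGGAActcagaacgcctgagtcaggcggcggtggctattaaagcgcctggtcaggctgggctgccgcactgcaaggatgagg

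Both strands of each window were searched for 6 short motifs: the Ets-IRF composite (GGAA and GAAA with 2 bases between), the interferon response pair (GAAA and GAAA with 2 bases between), the STAT site TTCNNNGAA, the NF-kB site (GGGA and CC with 4 bases between), the E-box CAGCTG and the TATA box TATAAA. The STAT site matched once among the printed windows, at position -36 of Fgl2, and 8.33% of 32544 promoters of this length held a match to it. None of the 6 motifs matched in the printed Apoe window or in the Gpx3, Pld4 and Pon3 windows. A second Apoe window held the NF-kB site and the TATA box, which 20.8% and 13.6% of promoters held. Slamf6 held the NF-kB site, and the second Plac8 window held the E-box, which 16.4% of promoters held. The Ets-IRF composite and the interferon response pair, held by 2.73% and 3.45% of promoters, matched in none of the 10 windows. A match is a run of letters, and no match says only that the letters are not in that window.

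Apoe had 213 CPM in B220+2NBDG+ spleen, 682 CPM in B220+2NBDG- spleen, 7.08 CPM in bone marrow, 21.3 CPM in B220-2NBDG+ spleen and 283 CPM in B220-2NBDG- spleen. Its level was not split cleanly by B220, because the B220-2NBDG- library stood above the B220+2NBDG+ library. No neighbouring intervals overlapped in this order. The gene lies on chromosome 7 from 19696109 to 19699188 on the minus strand (GRCm38).

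Pon3 had 967 CPM in B220+2NBDG+ spleen, 682 CPM in B220+2NBDG- spleen, 327 CPM in bone marrow, 410 CPM in B220-2NBDG+ spleen and 352 CPM in B220-2NBDG- spleen. Both B220+ libraries were above all 3 B220- libraries. The intervals of bone marrow, 312 to 342 CPM, and B220-2NBDG- spleen, 336 to 369 CPM, overlapped. Gpx3 had 101, 77.6, 4.43, 8.61 and 12.1 CPM in the same 5 libraries, in the same order. Both B220+ libraries were again the highest. The interval of B220-2NBDG+ spleen, 5.96 to 12.0 CPM, overlapped those of bone marrow, 2.86 to 6.53 CPM, and of B220-2NBDG- spleen, 9.29 to 15.5 CPM. Pon3 lies on chromosome 6 and Gpx3 on chromosome 11.

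Of the surface proteins, Cd2 had 55.8 CPM in B220+2NBDG+ spleen, 59.3 CPM in B220+2NBDG- spleen, 6.73 CPM in bone marrow, 9.87 CPM in B220-2NBDG+ spleen and 19.0 CPM in B220-2NBDG- spleen. The 2 B220+ libraries could not be told apart for Cd2, with intervals of 49.7 to 62.4 CPM and 53.6 to 65.4 CPM. Slamf6 had 42.3, 28.5, 9.91, 4.30 and 24.4 CPM in these libraries. The lowest library for Slamf6 was B220-2NBDG+ spleen, and the intervals of B220+2NBDG- and B220-2NBDG- spleen, 24.6 to 32.9 CPM and 20.3 to 29.1 CPM, overlapped. Scimp had 60.0, 53.3, 6.02, 19.2 and 14.3 CPM. For Scimp both B220+ libraries were above the other 3 and their intervals overlapped, at 53.7 to 66.8 CPM and 47.9 to 59.1 CPM. Cd2 lies on chromosome 3, Slamf6 on chromosome 1 and Scimp on chromosome 11.

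Of the endosomal and lysosomal enzymes, Pld4 had 133 CPM in B220+2NBDG+ spleen, 108 CPM in B220+2NBDG- spleen, 38.1 CPM in bone marrow, 53.4 CPM in B220-2NBDG+ spleen and 55.3 CPM in B220-2NBDG- spleen. Its 2 B220- splenic libraries overlapped in interval, at 46.4 to 61.1 CPM and 49.1 to 62.2 CPM. Napsa had 228, 132, 48.5, 119 and 72.7 CPM in the 5 libraries. Its B220+2NBDG- and B220-2NBDG+ spleen intervals, 123 to 141 CPM and 109 to 130 CPM, overlapped. Pld4 lies on chromosome 12 and Napsa on chromosome 7.

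Fgl2 had 87.5 CPM in B220+2NBDG+ spleen, 61.7 CPM in B220+2NBDG- spleen, 17.0 CPM in bone marrow, 32.7 CPM in B220-2NBDG+ spleen and 16.4 CPM in B220-2NBDG- spleen. The lowest 2 libraries, bone marrow and B220-2NBDG- spleen, overlapped in interval. Fgl2 overlaps the bounds of Ccdc146 on the opposite strand of chromosome 5, and whether the counting used strand is not given in the sources used here. Plac8 had 207, 314, 28.5, 85.8 and 225 CPM in the 5 libraries. As for Apoe, the B220-2NBDG- library reached the level of the B220+2NBDG+ library, with intervals of 212 to 238 CPM and 195 to 219 CPM. Bone marrow had the lowest value for 8 of the 10 genes, with Slamf6 and Fgl2 as the exceptions, and for Pon3, Gpx3 and Cd2 its interval overlapped that of the next library.

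**Figure D1:**
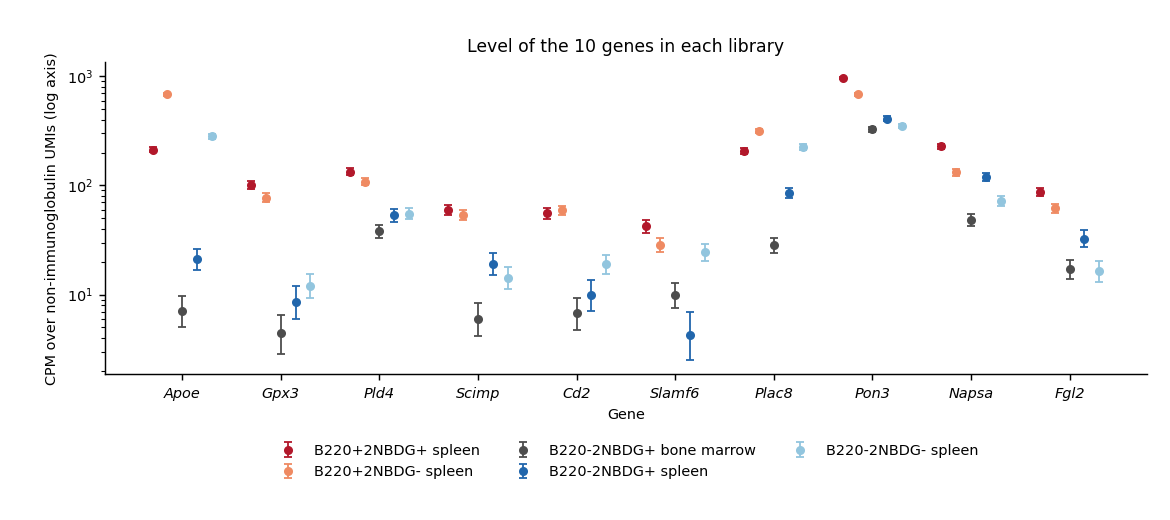
Level of each of the 10 genes (log axis, CPM over non-immunoglobulin UMIs) in the 5 libraries, with bars for the 95% Poisson interval of the count. Apoe and Plac8 in B220-2NBDG- spleen stood at 283 and 225 CPM, within the range of the B220+ libraries, while Gpx3 and Scimp were below 20 CPM in all 3 B220- libraries.

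The B220 comparison, which chose these genes, was made apart in 2NBDG+ and in 2NBDG- spleen. A gene is called at a difference of at least 2-fold, provided its higher library holds no fewer than 50 UMIs and 25 CPM of it. In 2NBDG+ spleen 9 of the 10 genes were called higher in B220+ cells, where 2.45% of 3715 genes were higher and 1.48% lower, and because the rule used this contrast nothing is read from the excess. The ratio was 11.7 for Gpx3 (8.27 to 17.1), 10.0 for Apoe (8.04 to 12.7), 9.83 for Slamf6 (6.01 to 17.2) and 5.65 for Cd2 (4.04 to 8.10). It was 3.12 for Scimp, 2.68 for Fgl2, 2.49 for Pld4 and 2.41 for Plac8. Just inside the 2-fold bound stood Pon3 at 2.36 and just outside it Napsa at 1.91 (1.72 to 2.13). The median over the 10 genes was 1.53 on the log2 scale, and over all genes tested 0.14.

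In 2NBDG- spleen 5 of the 10 genes were called higher in B220+ cells, where 5.91% of 4026 genes were higher and 3.18% lower. They were Gpx3 at a ratio of 6.40 (4.91 to 8.47), Fgl2 at 3.75, Scimp at 3.73, Cd2 at 3.12 and Apoe at 2.41, the last just inside the bound. Just outside it were Pld4 at 1.95, Pon3 at 1.93 and Napsa at 1.81. Plac8 had a ratio of 1.40 and Slamf6 a ratio of 1.17 with an interval of 0.926 to 1.47. The median over the 10 genes was 1.12 on the log2 scale, and over all genes tested 0.24. In this comparison cycling cells were 167 in the B220+ library and 14 in the B220- library. Without them 8 genes were called, where 2.95% of all genes were called higher, and the Slamf6 ratio was 0.938. It was 0.998 with Jchain left out of the total, so Slamf6 had no steady direction here.

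These counts moved with the denominator. With immunoglobulin UMIs kept in it, the median of all genes shifted by -0.25 in the 2NBDG+ comparison and by 0.53 in the 2NBDG- comparison on the log2 scale, and 5 and 9 of the 10 genes were called. Of all genes, 1.82% were then called higher in the 2NBDG+ comparison and 32.8% in the 2NBDG- comparison. All 10 ratios were above 1 in both comparisons with the non-immunoglobulin denominator.

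**Figure D2:**
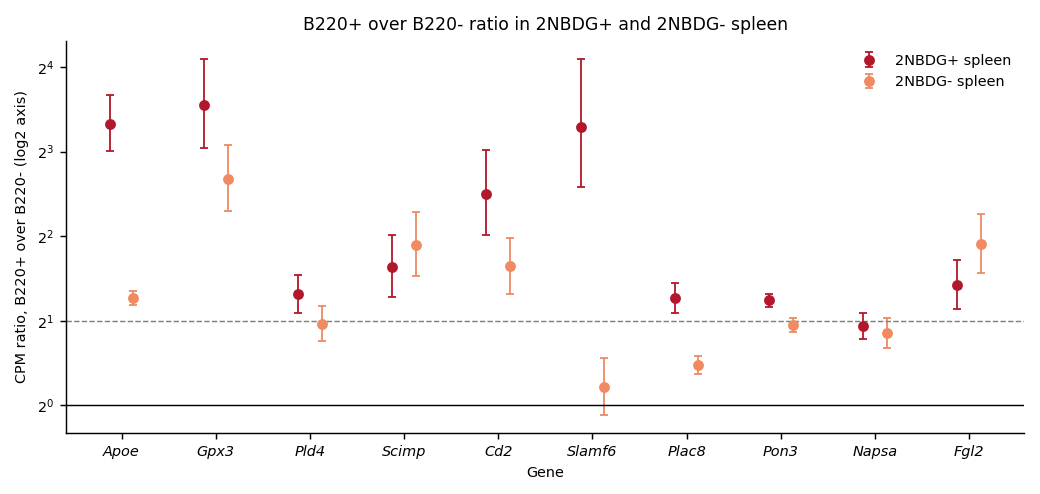
CPM in B220+ over CPM in B220- cells for each gene (log2 axis) in 2NBDG+ and 2NBDG- spleen, with 95% intervals for counting error and a dashed line at 2-fold. Apoe and Slamf6 stood at 10.0 and 9.83 in 2NBDG+ spleen and at 2.41 and 1.17 in 2NBDG- spleen, while Scimp and Fgl2 were above 2-fold in both.

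The 2NBDG comparison shares its libraries with the B220 comparison, so these comparisons are not independent. Within B220+ spleen Apoe was the 1 gene of the 10 called, and it was lower in 2NBDG+ cells at a ratio of 0.313 (0.293 to 0.334). Of 3987 genes, 4.61% were called lower and 1.15% higher. The other 9 ratios ran from 0.659 for Plac8 to 1.73 for Napsa. Within B220- spleen 6 of the 10 genes reached the minimum level. Apoe was called lower in 2NBDG+ cells at a ratio of 0.0751 (0.0595 to 0.0936), that is 13.3-fold lower, and Plac8 was called lower at 0.382 (0.337 to 0.431). Of 3687 genes, 2.12% were called lower and 0.895% higher. Slamf6 was under the minimum level here, with 17 UMIs in 2NBDG+ cells and 125 UMIs in 2NBDG- cells and a ratio of 0.176 (0.0994 to 0.293). In B220+ spleen its ratio was 1.48 (1.22 to 1.81). With immunoglobulin UMIs kept in the denominator the median of all genes in B220+ spleen shifted by -0.59 on the log2 scale and the Slamf6 ratio was 0.985. Fgl2 stood just outside the bound on the other side, at 1.99 (1.50 to 2.65). Among IgG cells alone neither Apoe nor Plac8 was called in B220- spleen. The Apoe ratio there was 0.238, from 3 and 8 UMIs, below the minimum for a call, and the Plac8 ratio was 0.606 (0.447 to 0.822).

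Bone marrow was compared with spleen among B220-2NBDG+ cells. The spleen library is the lower side of the B220 contrast that chose the genes, and the clusters were formed over all 5 libraries, so this comparison is not independent of that choice. Of the 5 genes above the minimum level, Plac8 was called lower in bone marrow at a ratio of 0.332 (0.274 to 0.402) and Napsa at 0.407 (0.349 to 0.473), where 1.40% of 3490 genes were called lower and 1.17% higher. Pld4, Pon3 and Fgl2 had ratios of 0.713, 0.798 and 0.520. IgA cells were 553 of 938 cells in bone marrow and 214 of 894 cells in B220-2NBDG+ spleen. The part of that difference in isotype in these ratios was described only within classes: among IgM cells the Napsa level was 28.6 CPM in bone marrow and 94.3 CPM in spleen, and among IgA cells 45.9 CPM and 78.0 CPM. Pld4 and Pon3 did not keep their direction among IgM cells, where their ratios were 1.16 and 1.29. Among IgG and among IgA cells the bone marrow value was the lower for both genes. Below the minimum level, Slamf6 had 56 UMIs in bone marrow and 17 UMIs in spleen, a ratio of 2.30 (1.32 to 4.23).

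Isotype was read from each cell's heavy chain UMIs, so IgG, IgA and IgM cells could be compared inside each library, where the sort gate is the same on both sides. Counts were summed for each library and isotype and tested with edgeR's quasi-likelihood test with the library as a block, with p-values adjusted by Benjamini-Hochberg over 8521 genes. The 5 libraries serve as the replicates, though they are different sort gates from spleen and bone marrow. No label says whether the pools were prepared apart. The p-value therefore measures the spread between these libraries, which may hold differences between gates and may also be technical. The genes were chosen for a higher level in B220+ spleen or its clusters. Those libraries held a larger share of IgG cells and a smaller share of IgA cells than B220- spleen. The choice could thus favour genes that are high in IgG cells or low in IgA cells. The isotype tests are not independent of it, and its part in each difference was not tested.

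Of the 10 genes, 5 rose in IgG over IgM cells: Pld4, Fgl2, Napsa, Scimp and Pon3. Of all genes tested, 2.48% were higher and 3.65% lower. Because the choice of the genes could favour those high in IgG cells, nothing is read from the excess. The median of the 10 genes was 0.87 on the log2 scale, and of all genes 0.00. None of the 10 fell, 0 did at an unadjusted p under 0.05 in edgeR, and DESeq2 also called 5 higher and 0 lower.

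Pld4, the nucleic acid exonuclease, had 205 CPM in IgG cells of B220+2NBDG+ spleen, 148 CPM in those of B220+2NBDG- spleen, 134 CPM in bone marrow, 145 CPM in B220-2NBDG+ spleen and 194 CPM in B220-2NBDG- spleen. In IgM cells it had 73.2, 92.6, 61.5, 53.1 and 51.0 CPM in the same libraries. The lowest IgG value was above the highest IgM value, and the groups did not overlap. The difference was 1.24 on the log2 scale (SE 0.14, adjusted p = 4.20e-06, edgeR), higher in 5 of 5 libraries.

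Pon3, the lactonase, had 1255, 791, 851, 999 and 1001 CPM in IgG cells and 789, 671, 517, 402 and 329 CPM in IgM cells of the 5 libraries. The values did not overlap, since the lowest IgG value, 791 CPM, was just above the highest IgM value, 789 CPM. Counting error cannot tell these 2 values apart. The difference was 0.85 on the log2 scale (SE 0.14, adjusted p = 0.000342, edgeR), higher in 5 of 5 libraries.

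Scimp had 83.8, 68.1, 21.9, 48.3 and 31.8 CPM in IgG cells and 43.6, 45.2, 7.42, 18.5 and 14.4 CPM in IgM cells. The ranges overlapped, but IgG was higher in 5 of 5 libraries, by 0.88 on the log2 scale (adjusted p = 0.00266, edgeR). Fgl2 rose by 1.01 (adjusted p = 0.0182, edgeR) in 5 of 5 libraries and Napsa by 0.90 (adjusted p = 0.0202, edgeR) in 4 of 5. The Fgl2 call was lost without B220+2NBDG+ spleen (adjusted p = 0.194) and without B220-2NBDG+ spleen (adjusted p = 0.0793), and the Napsa call without any of the 3 B220- libraries (adjusted p = 0.0522 to 0.176). Without B220-2NBDG+ spleen 3 of the 10 genes were called.

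The other 5 genes did not pass. Slamf6 was at 0.74 (adjusted p = 0.0567, edgeR) and Gpx3 at 0.90 (adjusted p = 0.118, edgeR). Cd2 was at 0.29, Plac8 at -0.07 and Apoe at -0.01, with adjusted p-values of 0.597, 0.938 and 0.999 from edgeR. Without B220+2NBDG- spleen Gpx3 and Cd2 passed at 1.48 and 0.90 (adjusted p = 0.0403 and 0.0455).

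In IgA over IgM cells, 5 of the 10 genes fell and 2 rose, where 6.90% of 8521 genes were lower and 6.17% higher. Because the choice could also favour genes low in IgA cells, nothing is read from the number that fell. Pld4 had 20.5, 7.36, 5.49, 7.09 and 13.7 CPM in IgA cells of the 5 libraries, below every IgM value given above. It fell by 2.71 on the log2 scale (SE 0.23, adjusted p = 1.36e-08, edgeR). Pon3 had 287, 174, 104, 119 and 141 CPM in IgA cells, again below every IgM value, and fell by 1.66 (SE 0.15, adjusted p = 3.17e-08, edgeR). Scimp fell by 1.31 (adjusted p = 0.00170), Apoe by 2.59 (adjusted p = 0.00244) and Plac8 by 0.89 (adjusted p = 0.0157). For Apoe, DESeq2 gave an adjusted p of 0.109. Without B220+2NBDG- spleen the Plac8 call was lost (adjusted p = 0.0703).

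Slamf6, the SLAM family receptor, had 51.2, 27.0, 13.6, 4.05 and 78.9 CPM in IgA cells and 32.3, 23.7, 4.24, 3.30 and 15.9 CPM in IgM cells of the 5 libraries. The ranges overlapped between libraries, but inside each library the IgA value was the higher. Slamf6 rose by 1.28 (SE 0.24, adjusted p = 0.000583, edgeR) in 5 of 5 libraries. Fgl2 rose by 0.94 (adjusted p = 0.0312, edgeR) in 4 of 5 libraries, a call that was lost without any of the 3 B220- libraries (adjusted p = 0.0622 to 0.192). Napsa, Gpx3 and Cd2 were at -0.26, 0.15 and 0.20 and did not pass.

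**Figure D3:**
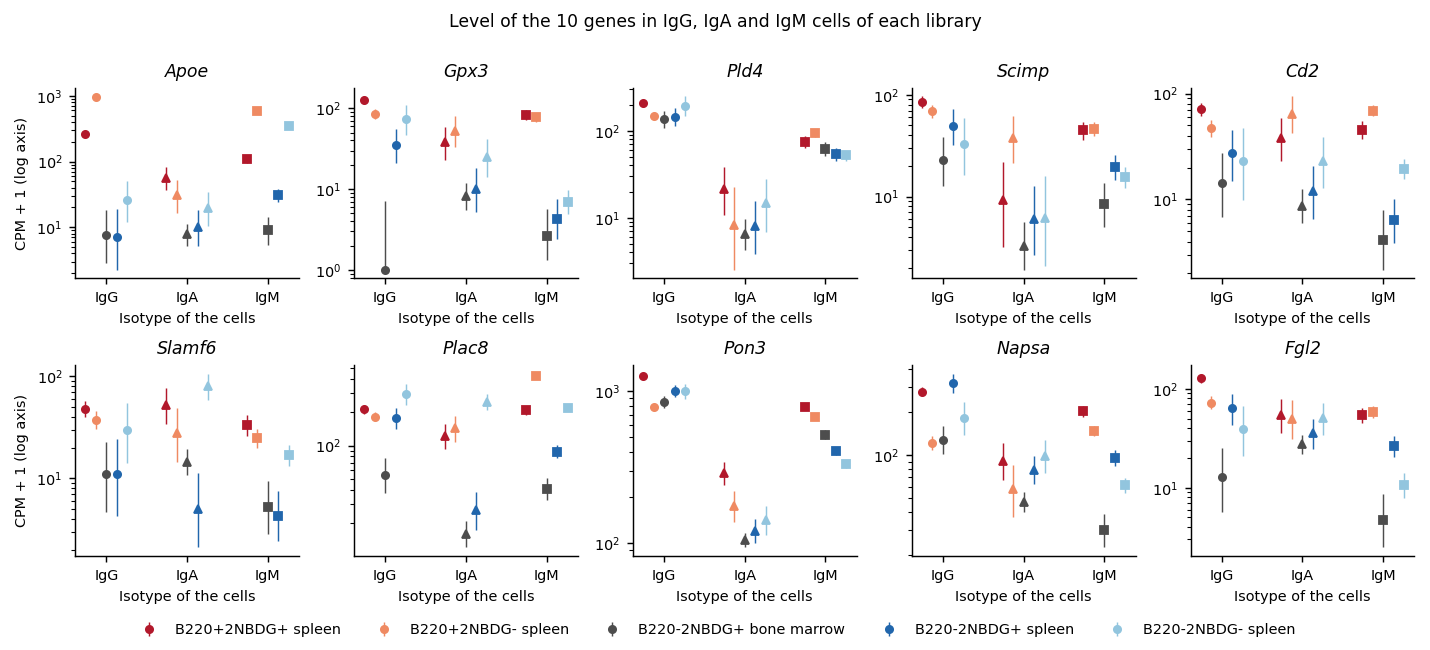
Level of each gene in IgG (circles), IgA (triangles) and IgM (squares) cells of the 5 libraries, as CPM + 1 on a log axis with 95% Poisson intervals. Pld4 lies in bands that do not overlap, with IgG highest and IgA lowest. The values of Pon3 keep this order, but the bars of its lowest IgG and highest IgM values, 791 and 789 CPM, overlap. The bars of its highest IgA and lowest IgM values, 287 and 329 CPM, overlap too. Apoe in IgG cells runs from 948 CPM in B220+2NBDG- spleen to 6.04 CPM in B220-2NBDG+ spleen.

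B220+ libraries held more IgG cells, with 552 of 1126 against 117 of 894 cells in 2NBDG+ spleen and 417 of 1215 against 74 of 1295 cells in 2NBDG- spleen. The B220 ratio was therefore also taken inside IgG and inside IgM cells. For Pld4 in 2NBDG+ spleen it was 1.42 in IgG cells and 1.38 in IgM cells, against 2.49 in all cells. In 2NBDG- spleen the Pld4 ratio was 0.766 in IgG and 1.82 in IgM cells. For Pon3 it was 1.26 in IgG and 1.96 in IgM cells of 2NBDG+ spleen, and 0.790 and 2.04 in 2NBDG- spleen. Napsa and Plac8 in 2NBDG- spleen likewise had ratios below 1 in IgG cells, at 0.670 and 0.627, and above 1 in IgM cells, at 2.43 and 1.93. Within IgG cells 5 of the 10 genes were called higher in B220+ cells of 2NBDG+ spleen, where 5.56% of all genes were, and 3 in 2NBDG- spleen, where 11.8% were. Within IgM cells 8 and 6 were called, where 2.07% and 7.01% of all genes were.

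Apoe and Gpx3 stood apart, in opposite directions. Apoe in IgG cells had 262 and 948 CPM in the B220+2NBDG+ and B220+2NBDG- libraries, and 6.04 and 25.4 CPM in the B220-2NBDG+ and B220-2NBDG- libraries. In IgM cells it had 107 and 597 CPM in the B220+ libraries and 29.7 and 343 CPM in the B220- libraries. The B220 ratio of Apoe was thus 43.4 (14.8 to 211, from 667 and 3 UMIs) in IgG cells and 3.60 in IgM cells of 2NBDG+ spleen. In 2NBDG- spleen it was 37.3 (18.9 to 86.5, from 2313 and 8 UMIs) in IgG cells and 1.74 in IgM cells. Both pairs have the IgG ratio above the IgM ratio, and the intervals of the IgG ratios lie wholly above both IgM values. These intervals treat UMIs as separate counts, whereas few cells held most Apoe UMIs. In 2NBDG+ spleen, cells with at least 10 Apoe UMIs were 2.36% (1.26% to 3.99%) of B220+ IgG cells. They were 0 of 117 B220- IgG cells, which allows up to 2.56% (3 counts of the total). These shares cannot be told apart. In 2NBDG- spleen the shares were 8.39% (5.92% to 11.5%) and 0 of 74, which allows up to 4.05%. B220 was part of the rule that chose the genes, so this is a description.

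Gpx3 in IgG cells had 126 and 83.6 CPM in the B220+ libraries, and 34.2 and 73.1 CPM in the B220- libraries, in the order 2NBDG+ then 2NBDG-. In IgM cells it had 81.4 and 76.2 CPM in the B220+ libraries, and 3.30 and 6.01 CPM in the B220- libraries. Its B220 ratio was 3.67 in IgG and 24.7 in IgM cells of 2NBDG+ spleen, and 1.14 and 12.7 in 2NBDG- spleen. The B220- levels rest on 17 and 23 UMIs in IgG cells and on 8 and 25 UMIs in IgM cells. A single cell of B220-2NBDG- spleen held up to 11 Gpx3 UMIs. In B220- spleen the IgG level was the higher, at ratios over IgM of 10.4 (4.25 to 27.8) and 12.2 (6.59 to 22.3). In B220+ spleen both isotypes carried the peroxidase, at ratios of 1.55 (1.28 to 1.87) and 1.10 (0.912 to 1.32).

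**Figure D4:**
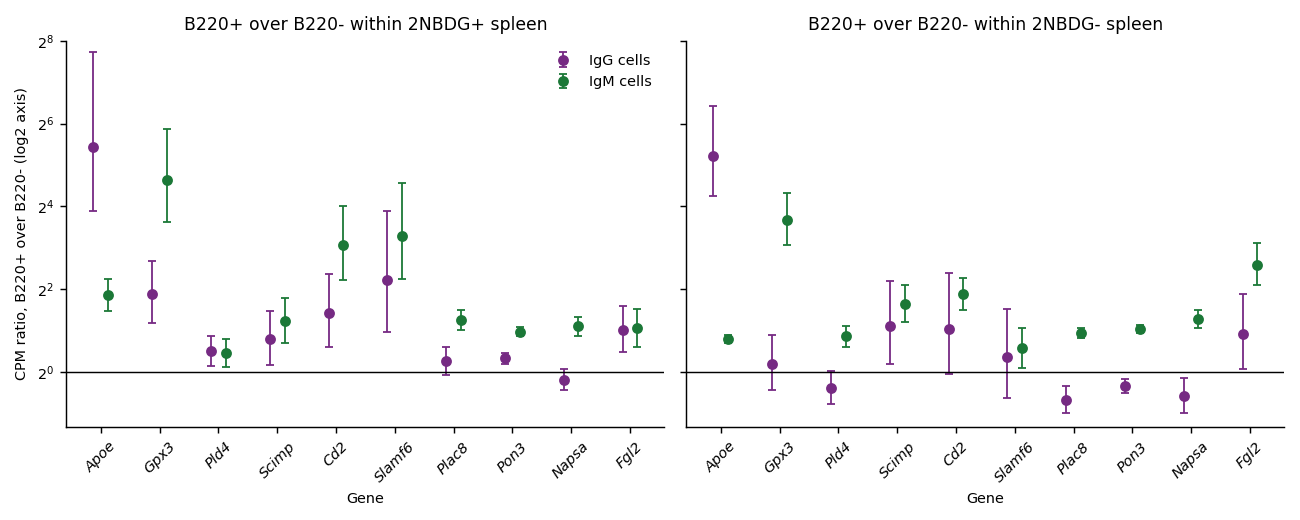
CPM in B220+ over CPM in B220- cells inside IgG and inside IgM cells (log2 axis), in 2NBDG+ spleen on the left and 2NBDG- spleen on the right, with 95% intervals for counting error. Apoe stood at 43.4 and 37.3 in IgG cells, above its IgM values of 3.60 and 1.74, and Gpx3 stood at 24.7 and 12.7 in IgM cells, above its IgG values of 3.67 and 1.14.

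In the B220+ libraries Apoe was also the gene of the 10 held most unevenly among cells. Cells with at least 10 Apoe UMIs numbered 18 of 1126 in B220+2NBDG+ spleen and 62 of 1215 in B220+2NBDG- spleen, and 0 of 938 in bone marrow, 1 of 894 in B220-2NBDG+ spleen and 13 of 1295 in B220-2NBDG- spleen. These cells held 66.3%, 89.6% and 67.8% of all Apoe UMIs in B220+2NBDG+, B220+2NBDG- and B220-2NBDG- spleen. A single cell held up to 199, 363 and 327 Apoe UMIs in these 3 libraries. The 5% of cells with most UMIs of a gene held 79.1% and 89.4% of Apoe UMIs in B220+2NBDG+ and B220+2NBDG- spleen. The next highest was Gpx3, at 50.9% and 55.3%, and Pon3 had 18.2% and 21.8%. In every B220- library such cells held 100% of the Gpx3 UMIs, which were few, so this share does not rank Apoe there.

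The cells with at least 10 Apoe UMIs were IgG cells in 13 of 18 cases in B220+2NBDG+ spleen and in 35 of 62 cases in B220+2NBDG- spleen. All 13 in B220-2NBDG- spleen were IgM cells. As a share of IgG cells they were 8.39% (Clopper-Pearson 5.92% to 11.5%) in B220+2NBDG- spleen. In B220-2NBDG- spleen they were 0 of 74 IgG cells, which allows a share of up to 4.05% (3 counts of the total). IgA cells held none in any library. Among IgG subclasses of B220+2NBDG- spleen, Apoe reached 2345 CPM in the 100 Ighg2b cells, of which 11 had at least 10 UMIs. That share had an interval of 5.62% to 18.8%. It was 7.94% (4.92% to 12.0%) in Ighg2c cells and 7.27% (2.02% to 17.6%) in Ighg3 cells, so these shares cannot be told apart.

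Since macrophages are a known source of Apoe, 14 macrophage markers without Ly6c2 and Ctss were summed in the same cells. They came to 35.4, 117 and 26.0 CPM in cells with at least 10 Apoe UMIs of B220+2NBDG+, B220+2NBDG- and B220-2NBDG- spleen. In cells without Apoe they came to 37.9, 36.3 and 34.7 CPM. The sums in the cells with at least 10 Apoe UMIs rest on 3, 32 and 1 UMIs, and those of 3 and 1 cannot show a difference. The sum on 32 UMIs, in B220+2NBDG- spleen, was higher than in that library's cells without Apoe. 5 B cell markers summed to 224, 388 and 286 CPM in these cells, against 137, 168 and 231 CPM in cells without Apoe. Sdc1, the gene of CD138, had 319, 325 and 415 CPM, against 550, 402 and 474 CPM. Jchain, a plasma cell gene for the joining chain of IgM and IgA, had 186008, 115267 and 107509 CPM, against 194297, 99518 and 225776 CPM. The cells with at least 10 Apoe UMIs thus had the higher B cell marker sum and the lower Sdc1 level in all 3 libraries. In B220-2NBDG- spleen, where 1 UMI in these cells is 26.0 CPM, both differences lie within counting error. The B cell marker difference in B220+2NBDG+ spleen, where 3 UMIs in these cells are 35.4 CPM, lies at the edge of counting error. So does the Sdc1 difference in B220+2NBDG- spleen. The part of these cell contents, macrophage markers included, in the Apoe values was not tested. Cells with exactly 1 Apoe UMI were 17.9%, 13.9%, 3.84%, 5.26% and 16.0% of cells in B220+2NBDG+ spleen, B220+2NBDG- spleen, bone marrow, B220-2NBDG+ spleen and B220-2NBDG- spleen. The 3 libraries with at least 213 CPM of Apoe had shares of 13.9% or more and the other 2 of 5.26% or less. The part of free RNA in these shares was not tested, because no library held a cell type lacking Apoe in number.

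Cycling cells were called from a list of 35 cell cycle genes that holds none of the 10. They numbered 15 in B220+2NBDG+ spleen, 167 in B220+2NBDG- spleen and 14 in B220-2NBDG- spleen, with 1 and 0 in B220-2NBDG+ spleen and bone marrow. Over the first 3 libraries, 6 of the 10 genes fell in cycling cells and none rose, where 9.25% of 9185 genes were lower and 9.73% higher (edgeR, 6 sums, 2 residual degrees of freedom). At an unadjusted p under 0.05 edgeR had 1 higher, Slamf6, and DESeq2 called 0 higher and 6 lower. The median over the 10 genes was -1.09 on the log2 scale, and over all genes -0.08. The genes were chosen for their level in B220+ spleen or its clusters, and cell cycle genes led a cluster of their own. The choice could thus favour genes that are low in cycling cells. The cycling test is not independent of it, and nothing is read from the number that fell. The part of the choice in each difference was not tested.

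Apoe fell by 2.78 (SE 0.22, adjusted p = 5.08e-34, edgeR) and Gpx3 by 2.45 (SE 0.33, adjusted p = 5.03e-12, edgeR). In B220+2NBDG+ and B220-2NBDG- spleen the cycling cells held only 2 and 2 Apoe UMIs and 3 and 1 Gpx3 UMIs. These p-values therefore do not show a fall of known size in each library. As few cells held most Apoe UMIs, the part of cell sampling in its fall was not tested. Plac8 fell by 1.55, Napsa by 1.38, Cd2 by 1.31 and Pon3 by 0.86, with adjusted p-values of 7.18e-12, 1.11e-07, 0.000367 and 3.00e-06 from edgeR. In B220+2NBDG- spleen, where most cycling cells were, Apoe had 172 CPM in cycling cells and 873 CPM in other cells, and Gpx3 had 18.8 CPM and 99.6 CPM. Without that library the Cd2 call was lost (adjusted p = 0.142), leaving 5.

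Slamf6 was the 1 gene of the 10 with more in cycling cells. It had 78.4, 44.7 and 51.4 CPM in cycling cells and 41.6, 22.5 and 24.0 CPM in other cells of B220+2NBDG+, B220+2NBDG- and B220-2NBDG- spleen. Cycling cells were higher in 3 of 3 libraries, at ratios of 1.89 (0.851 to 3.64), 1.99 (1.47 to 2.67) and 2.14 (0.684 to 5.14). These rest on 9, 81 and 5 UMIs in cycling cells, and the first and last intervals include 1. The difference of 0.74 did not pass (adjusted p = 0.0532, edgeR), and it did without B220-2NBDG- spleen (adjusted p = 0.0241). Scimp at -0.77 (adjusted p = 0.0555), Fgl2 at -0.68 (adjusted p = 0.0777) and Pld4 at -0.43 (adjusted p = 0.207) did not pass either.

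To compare how many cells held each gene at equal depth, each cell was thinned to 1000 non-immunoglobulin UMIs, which left out 10, 5, 3, 2 and 13 shallower cells of B220+2NBDG+ spleen, B220+2NBDG- spleen, bone marrow, B220-2NBDG+ spleen and B220-2NBDG- spleen. Pon3 was found in 53.9%, 45.5%, 19.5%, 29.6% and 24.8% of thinned cells, and in 89.1%, 81.6%, 56.0%, 64.3% and 53.6% of cells before thinning. Gpx3 was found in 7.62%, 6.20%, 0.535%, 1.01% and 1.09% of thinned cells, and in 22.3%, 19.1%, 2.67%, 2.80% and 3.01% before thinning. Both genes were thus found in more cells of the B220+ libraries than of any B220- library. Apoe was found in 7.71%, 12.2%, 1.28%, 1.79% and 9.75% of thinned cells, so B220-2NBDG- spleen stood above B220+2NBDG+ spleen in share as in level. The other 7 genes were found in 4.48% (Slamf6) to 18.1% (Napsa) of thinned B220+2NBDG+ cells, and in 0.336% (Slamf6) to 11.8% (Napsa) of thinned B220-2NBDG+ spleen cells.

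Counted over all 10 genes, a thinned cell held 1.38 of them on average in B220+2NBDG+ spleen and 1.25 in B220+2NBDG- spleen, and 0.351 in bone marrow, 0.631 in B220-2NBDG+ spleen and 0.715 in B220-2NBDG- spleen. At least 3 of the 10 were found in 15.7% and 12.0% of B220+ cells, and in 0.856%, 2.13% and 2.73% of the B220- cells in that order. None of the 10 was found in 22.2% and 25.3% of B220+ cells, and in 69.9%, 53.3% and 46.8% of B220- cells. The distributions overlapped, and no number of detected genes divided B220+ from B220- cells at this depth.

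**Figure D5:**
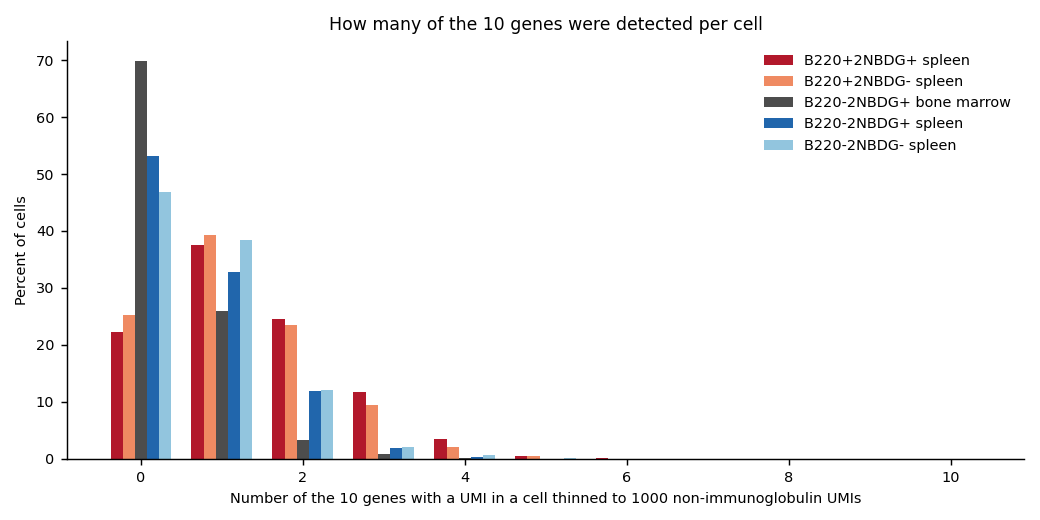
Percent of cells (y axis) by how many of the 10 genes had a UMI after thinning to 1000 non-immunoglobulin UMIs (x axis), as bars for each of the 5 libraries. Cells with none of the 10 were 22.2% and 25.3% in the B220+ libraries and 69.9%, 53.3% and 46.8% in bone marrow, B220-2NBDG+ spleen and B220-2NBDG- spleen, and cells with 5 or more were below 1% in every library.

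Whether the genes were found in the same cells was described by the number of thinned cells with both genes of a pair over the number that the product of their shares gives, for pairs where the product gives at least 5 cells. The ratio was above 1 in 25 of 35 pairs in B220+2NBDG+ spleen and 21 of 30 pairs in B220+2NBDG- spleen, with medians of 1.10 and 1.11. It was above 1 in 2 of 2, 6 of 6 and 8 of 13 pairs in bone marrow, B220-2NBDG+ spleen and B220-2NBDG- spleen. The most frequent pair for its product was Pld4 with Slamf6 in B220+2NBDG+ spleen, with 14 cells where the product gives 5.38. Pld4 with Gpx3 in the same library had 18 cells where the product gives 9.14. Pairs with Apoe stood on both sides of 1, above it in 2 of 6 pairs in B220+2NBDG+ spleen, 4 of 8 in B220+2NBDG- spleen and 1 of 4 in B220-2NBDG- spleen. Of the Apoe pairs in B220+2NBDG- spleen the lowest was Apoe with Pld4, found in 5 cells where the product gives 12.1. The highest of these Apoe pairs was Apoe with Plac8, at a ratio of 1.16. Among IgG cells that were not cycling in B220+2NBDG+ spleen, 15 of 32 pairs were above 1 (median 0.982), and among IgM cells 8 of 11 (median 1.15). In B220+2NBDG- spleen 10 of 16 pairs were above 1 in IgG cells (median 1.08) and 11 of 18 in IgM cells (median 1.13). Thinned to 2000 UMIs instead, 28 of 45 pairs were above 1 in B220+2NBDG+ spleen (median 1.04), and the highest ratio was 1.56. In B220+2NBDG- spleen 33 of 45 were above 1 (median 1.09), and the lowest was 0.699. In bone marrow, B220-2NBDG+ spleen and B220-2NBDG- spleen, 4 of 6, 10 of 14 and 12 of 23 pairs were above 1. The pairs named above for their distance from 1 in the B220+ libraries thus stood nearer to it at this depth. The other ends of the ranges did not. The highest ratio in B220+2NBDG- spleen was 2.07, against 1.77 at 1000 UMIs. The lowest in B220+2NBDG+ spleen was 0.636, against 0.642. No test was made, since cells of 1 library are not replicates.

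The levels of the 10 genes were also followed over the 15 sums of library and isotype, as log2(CPM + 1). These sums share libraries and differ in depth, so the correlations are a description. Scimp and Cd2 followed the mean of the 10 most closely, each with r = 0.86, and Pld4 least, with r = 0.64. Of 3519 genes with a mean of at least 25 CPM, the 10 outside the set with the highest correlation to that mean were H2-Ob (0.954), Fkbp11, Creld2, Txndc11, Tmed10, H2-Aa, Cxcr3, Tmem214, Spcs3 and Gusb (0.924). H2-Ob and H2-Aa are MHC class II genes, and Fkbp11, Creld2, Txndc11, Tmed10 and Spcs3 encode proteins of the endoplasmic reticulum and early secretory pathway. Gene by gene, the closest partner of Pld4 was Pon3 itself (r = 0.976). The closest of Scimp was Hpse (0.964), of Gpx3 H2-Eb1 (0.933), of Fgl2 Gadd45b (0.943), of Plac8 Selenos (0.935), of Cd2 Hnrnpdl (0.909), of Apoe Tap1 (0.894), of Slamf6 Mbnl2 (0.893) and of Napsa Trappc5 (0.891).

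The pathway partners of the 10 genes were taken from lists. None of the other SLAM family genes, lipoprotein genes, peroxide handling genes, endosomal nucleic acid sensors, lysosomal proteases or transmembrane adaptors was called in the same direction in both B220 comparisons. Medians of these 6 lists without the 10 genes ran from 0.13 (endosomal sensors) to 0.40 (SLAM family, 4 genes) on the log2 scale in 2NBDG+ spleen, where the median of all genes was 0.14. In 2NBDG- spleen they ran from -0.13 (lysosomal genes) to 0.26 (adaptors), where the median of all genes was 0.24. Genes called lower in 2NBDG- spleen were 3 of 14 lysosomal genes, 1 of 4 SLAM family genes and 1 of 15 peroxide genes. Of the fibrinogen-like list 1 gene besides Fgl2 reached the minimum level, the receptor Fcgr2b, and it was not called. MHC class II, the antigen presentation genes, had 6 genes called higher in both: H2-Aa (7.45 in 2NBDG+ and 5.85 in 2NBDG- spleen), H2-Ab1 (4.85 and 4.53), H2-Eb1 (4.67 and 4.47), H2-Ob (4.13 and 2.12), H2-DMb1 (2.50 and 2.41) and H2-DMa (2.07 and 2.11). Of the cell cycle list, Rrm2, a ribonucleotide reductase subunit, was called in both, at 3.90 and 10.3. In 2NBDG- spleen, where the B220+ library held most of the cycling cells, 26 of 27 tested genes of this list were called higher (median 3.51 on the log2 scale), and in 2NBDG+ spleen 1 of 2.

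Over IgG against IgM cells, the MHC class II list had 5 of 9 tested genes higher and none lower, 0 lower also at an unadjusted p under 0.05 in edgeR, and 4 higher in DESeq2. The lipoprotein list had 0 of 9 called, 0 at an unadjusted p under 0.05 in edgeR and 0 in DESeq2, so none of Apoe's tested partners passed. Of 13 endosomal sensors 1 fell, the transcription factor Irf8 (-1.30), and of 15 lysosomal genes 2 fell, the membrane protein Lamp1 (-0.73) and the protease Ctso (-0.54). Of 6 SLAM family genes Slamf9 fell (-0.78), and DESeq2 called 0 of them. Of 18 peroxide genes, Prdx4 and Txn1 rose (0.50 each) and Selenop (-1.02) and Gpx4 (-0.42) fell. Of 11 adaptors, the B cell adaptor Blnk rose (0.50) and 2 fell. The cell cycle list had 8 of 35 higher, and 7 in DESeq2.

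In cycling cells, where the median of all genes was -0.08 and 9.25% of all genes fell and 9.73% rose, lists beside the 10 genes also held genes that fell. DESeq2 called fewer of the lysosomal, endosomal, lipoprotein, SLAM and peroxide genes. Lysosomal genes fell in 12 of 15 cases (9 in DESeq2), among them Cst3 (-1.81), Ctss (-1.53) and Lamp1 (-1.11). Endosomal sensors fell in 5 of 13 cases (2 in DESeq2), among them Pld3 (-1.65), an exonuclease of the same family as Pld4, and Unc93b1 (-0.82), which carries Toll-like receptors to endosomes. Lipoprotein genes fell in 5 of 8 cases (1 in DESeq2), among them Lipa (-1.04) and Npc2 (-0.67), which handle cholesterol in lysosomes. SLAM family genes fell in 2 of 6 cases (1 in DESeq2), Slamf9 (-1.28) and Slamf7 (-0.87), and adaptors in 3 of 11 (3 in DESeq2). Peroxide genes were divided, with 4 of 19 higher and 5 lower (2 and 4 in DESeq2). Of 9 MHC class II genes 3 fell, among them Cd74 (-1.57) and H2-Ob (-1.55), and 1 rose, as in DESeq2.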

How the data were processed

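Single cells of 5 sorted plasma cell pools were profiled with 10x Chromium 3′ chemistry, per the labels' protocols. The authors deposited UMI counts of 33456 genes for each cell barcode, made with Cell Ranger 2.1 on GRCm38 per the submitters' processing notes. The choice of barcodes, the transcript annotation and the use of strand in counting: each is not given in the sources used here. Every barcode had at least 500 UMIs, 200 genes and under 10% mitochondrial UMIs. A cluster of 8 T cell-like cells was left out (scanpy 1.11.5, leidenalg 0.10.2), and 82 predicted doublets (1.50%) were kept. The 266 immunoglobulin genes were left out of the denominator of CPM.

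Isotype needed at least 10 heavy chain constant region UMIs with 70% from 1 constant region gene. Cycling cells were those that, thinned to 1000 non-immunoglobulin UMIs, kept 3 or more UMIs from the cell cycle genes. Between libraries, ratios carry exact conditional binomial intervals, CPM exact Poisson and shares Clopper-Pearson intervals, all at 95%, and counts under 3 UMIs were raised to 3. Within libraries, counts summed over at least 10 cells were tested with edgeR 4.0.16 (R 4.3.3), with the library as block and Benjamini-Hochberg adjustment at 0.05. DESeq2 1.42.0 was the alternative. The fits were checked on simulated counts with known changes.

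The 10 genes and all lists were chosen with earlier results of these data known. The text names the 10 genes, and from the lists genes called in both B220 comparisons or in the IgG against IgM or cycling tests, up to 6 for each list. It also names the 10 genes most like the mean of the set and the closest for each of the 10.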

Additional observations from a re-analysis of the deposited data

Results flagged for a closer look

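Slamf6 was higher in 2NBDG+ than in 2NBDG- cells of B220+ spleen, at a ratio of 1.48, and lower in B220- spleen, at a ratio of 0.176. The directions were opposite with 1 library in each group, and the difference between them was not tested. With immunoglobulin UMIs kept in the denominator the ratio in B220+ spleen was 0.985.

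Apoe was higher in IgG than in IgM cells of both B220+ splenic libraries, at ratios of 2.46 in 2NBDG+ and 1.59 in 2NBDG- spleen. It was lower in IgG than in IgM cells of both B220- splenic libraries, at ratios of 0.204 and 0.0741. The directions were opposite in B220+ and B220- spleen, and the difference between them was not tested, since B220 was part of the rule that chose the gene. The B220- values rest on 3 and 8 UMIs in IgG cells.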

How the results depend on the processing

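Other settings moved the counts of the 10 genes called. The share of all genes called under the same setting is in brackets. For B220 in 2NBDG+ spleen 5 genes were called with all UMIs in the denominator (1.82%) and 5 in IgG cells only (5.56%). For B220 in 2NBDG- spleen 9 were called with all UMIs (32.8%), 8 without cycling cells (2.95%) and 3 in IgG cells only (11.8%). For 2NBDG in B220+ spleen 2 were lower with all UMIs (28.7%) and 2 in IgM cells only (4.99%), and 1 was higher in IgG cells only (1.79%). For 2NBDG in B220- spleen 1 was higher without Jchain in the total (1.15%), with TMM factors (1.15%), in IgM cells only (0.919%) and without predicted doublets (0.895%). There 0 were lower in IgG cells only (2.44%), where Apoe had a ratio of 0.238 from 3 and 8 UMIs, below the minimum. In bone marrow 4 were lower without Jchain in the total (1.24%), in IgM cells only (1.74%) and with no minimum (4.50%), where 1 was higher (3.04%). No paired analysis was possible because each group had 1 library; the fits within libraries use the library as block.

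Without the library block, IgA against IgM cells gave 184 genes higher and 212 lower (0 and 2 of the 10), and IgG against IgM cells gave 17 and 49 (1 of the 10 higher). IgG against IgM cells had 467 genes lower with no filter. Cycling cells had 481 genes higher and 352 lower with DESeq2, 536 lower with at least 5 cell cycle UMIs, 1 of the 10 higher with DESeq2 size factors and 3 of the 10 lower without the block. The cause of these shifts was not tested.

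With 1 library left out at a time, IgA against IgM cells gave 390 to 494 genes higher and 481 to 519 lower, of the 10 genes 1 to 2 and 4 to 5. IgG against IgM cells gave 85 to 224 higher and 157 to 335 lower, of the 10 genes 3 to 7 and 0 to 0. Cycling cells gave 301 to 1004 higher and 342 to 810 lower, of the 10 genes 0 to 1 and 5 to 7, and the fewest of both came without B220+2NBDG- spleen.

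Fitted log2 differences of the 10 genes changed sign 14 times, none of them past the threshold in either fit. Apoe in IgG against IgM cells was at 0.00036 with DESeq2 size factors, 0.20 without the block, 0.28 at 90% isotype dominance, 0.15 without cycling cells and -0.53 to 0.67 with 1 library left out (0.67 without B220-2NBDG- and 0.06 without B220-2NBDG+ spleen). Plac8 was at 0.10 with DESeq2, 0.0036 at 90% dominance and -0.29 to 0.36 with 1 library left out. In IgA against IgM cells, Gpx3 was at -0.54 without the block and -0.18 to 0.68 with 1 library left out (-0.14 without bone marrow), Cd2 at -0.14 without the block, and Napsa at -0.49 to 0.044 with 1 library left out. Between libraries, 28 of 500 ratios stood on the other side of 1 under another setting, 12 of them for 2NBDG in B220+ spleen. For B220 these were Slamf6 in 2NBDG- spleen without cycling cells (0.938) and without Jchain (0.998), and, in IgG cells only, Napsa in both comparisons (0.875 and 0.670) and Pld4 (0.766), Pon3 (0.790) and Plac8 (0.627) in 2NBDG- spleen. For bone marrow over spleen they were Pld4 (1.16) and Pon3 (1.29) in IgM cells only, and Apoe (1.11, from 4 and 3 UMIs) in IgG cells only. Cycling against other cells was not run in IgM cells only, since 1 library had enough cells of both kinds. Genes under about 10 CPM in a library rest on fewer than 60 UMIs, which limits their ratios.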

Other observations

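The 8 cells of the T cell-like cluster, which entered no comparison, held 8 Apoe UMIs in 2 cells. In the 2 B220+ libraries Apoe was found in 24.8% of cells in 2NBDG+ spleen and in 25.9% in 2NBDG- spleen before thinning, although its level was 213 CPM and 682 CPM. Libraries B220+2NBDG- and B220-2NBDG+ of spleen differed from the other 3 in the same direction for 8 genes that were higher and 12 genes that were lower in both, and none of the 10 genes was among them.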
